A study of Homo sapiens with 2 samples.

Results

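The histone and DNA modifying enzymes described here are the genes whose symbol is KDM, KMT, HDAC, SIRT, PRMT, SETD, TET, DNMT or EZH followed by a number and at most 1 letter. Pseudogenes, antisense genes and KDM5D were left out. The rule, which uses names and no measured value, gave 69 of 19775 annotated genes. They were measured in EOL-1, an established human line from an eosinophilic leukaemia whose growth is driven by the kinase fusion FIP1L1-PDGFRA. The treated group was 1 culture kept with 100 nM Glivec for 4 h, and the control was 1 untreated culture of the same line in the same medium. Glivec is imatinib, which blocks the fusion kinase as well as ABL and KIT. Each culture was hybridised to 1 Affymetrix array, so no difference has a replicate check and no p-value is given. Fewer cells of a type and less RNA per cell cannot be told apart in such bulk samples.

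Chromatin is marked by methyl and acetyl groups on histone tails and by methylation of cytosine in DNA. Lysine methyltransferases with a SET domain and the PRMT arginine methyltransferases use S-adenosylmethionine to add methyl groups. Lysine demethylases of the LSD type use a flavin cofactor to remove them, and those with a JmjC domain use iron and 2-oxoglutarate. Acetyl groups are removed by zinc-dependent histone deacetylases (HDACs) and by NAD-dependent sirtuins. DNMT enzymes methylate cytosine, and TET dioxygenases oxidise the methyl group. KMT2A, TET2, DNMT3A and EZH2 are among the genes recurrently altered in myeloid leukaemia.

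Signals are intensities on a linear scale, scaled by the submitters to the same trimmed mean on both arrays. A floor was set at a signal of 13.7, the median of all probe sets that are no controls, and each gene was read from its brightest probe set, with _x_at probe sets, which may cross-hybridise, used only where there was no other. Probe sets differ in how strongly they bind, so bright and dim describe a probe set's signal and do not rank transcripts of different genes. Of the 69 enzyme genes 65 were above the floor on both arrays, and for DNMT3L, KDM4D, SIRT4 and HDAC11 both arrays were below it. No enzyme gene was above the floor on 1 array alone. The labelled cell type was checked by markers: PRG2, an eosinophil granule protein, had signals of 6302 with Glivec and 4744 without, and PTPRC and CEBPA were bright. By the probe set used, the myeloid markers SPN and ANPEP were below or near the floor (4.14 to 13.8). Other SPN probe sets, 4 of them, were above the floor on at least 1 array. The eosinophil genes IL5RA, EPX and CLC were at or near the floor (7.49 to 27.2). Markers also differed between the arrays: SPI1 was 2.31-fold higher with Glivec, GATA2 2.20-fold lower and CSF2RB 1.78-fold lower. Over 3 GATA2 probe sets the log2 ratio of Glivec over untreated ranged from -1.14 to 0.20. Of the fusion's partner genes, PDGFRA had 398 with Glivec and 602 without, 1.51-fold lower, but another probe set had a log2 ratio of 0.38. FIP1L1 had 82.8 with Glivec and 98.2 without. Of 8 genes of other cells, 4 were below the floor on both arrays by the probe set used. MS4A1 and COL1A1 of these each had 1 other probe set above it on at least 1 array. PECAM1 (263 and 223), which myeloid cells also express, was the brightest, followed by HBB (30.5 with Glivec). The summed signal of these 8 was 347 with Glivec and 283 without, and its part in any result was not tested.

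The enzyme genes as a group differed little between the arrays. Ratios are Glivec over untreated, on a log2 scale unless a fold is given. The median log2 ratio of the 65 genes was 0.16, against 0.086 for the 10975 genes of the array that were above the floor on both arrays. A ratio above 1 was found for 45 of 65, where 57.8% of all genes had one. At least 2-fold higher were 3 of the 65 (4.62%), beside 2.75% of all genes. None was at least 2-fold lower, beside 2.61% of all genes. At the 1.5-fold level 12 genes were higher (18.5%, with 12.7% of all genes) and 5 were lower (7.69%, with 8.43%), so these shares lie near those of all genes. The spread between probe sets of 1 enzyme gene, the only available measure of error, had a pooled SD of 0.32 on the log2 scale over 38 genes. It leaves out the variation between cultures. Of these 38 genes 21 had all probe sets on 1 side of 0 and 17 had them on both sides. By that measure 36 of the 65 ratios were within 1 SD of 0 and 14 were beyond 2 SD. These bounds were not applied to all genes, so the counts show no excess over the rest of the array.

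**Figure D1:**
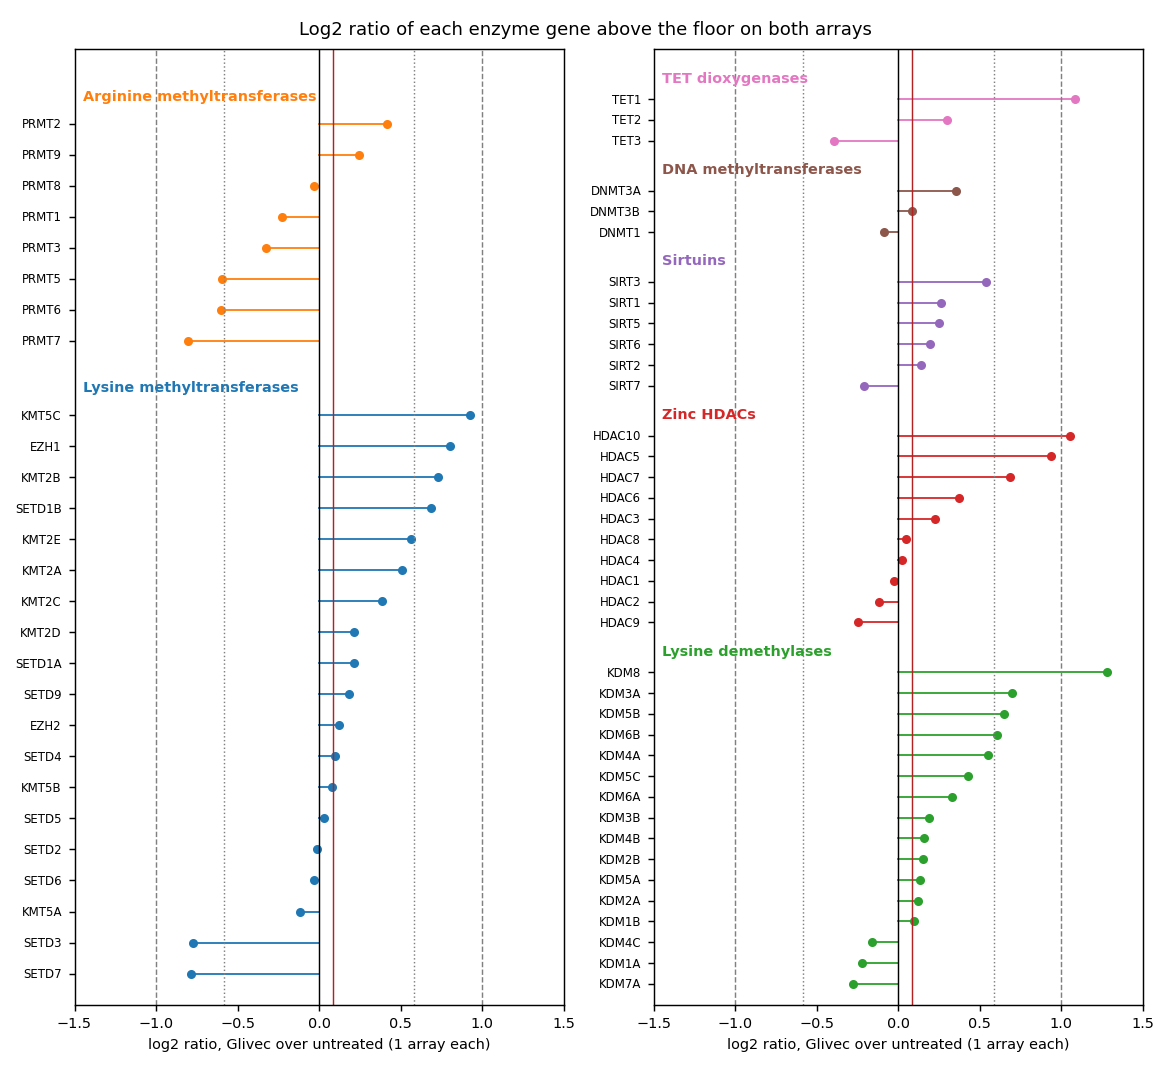
Log2 ratio of signal (Glivec over untreated, 1 array each) for the 65 enzyme genes above the floor on both arrays, 1 point per gene, grouped by class. Dotted lines mark 1.5-fold, dashed lines 2-fold and the red line the median of all genes, 0.086. KDM8, TET1 and HDAC10 lie past 2-fold, and PRMT7, SETD7, SETD3, PRMT6 and PRMT5 form the lower end.

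All differences are relative to the bulk of the signals. The 18 hybridisation spike-in controls were 1.67-fold higher on the Glivec array, and with scaling to these controls the median over all genes became -0.63 and that of the enzyme genes -0.57. With quantile normalization the enzyme median was 0.15, after loess 0.14, and with median centring it turned to -0.045, while the median of all genes was 0.048, 0.034 and -0.11. The enzyme median thus stayed above that of all genes by 0.064 to 0.10 under these 4 scalings.

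**Figure D2:**
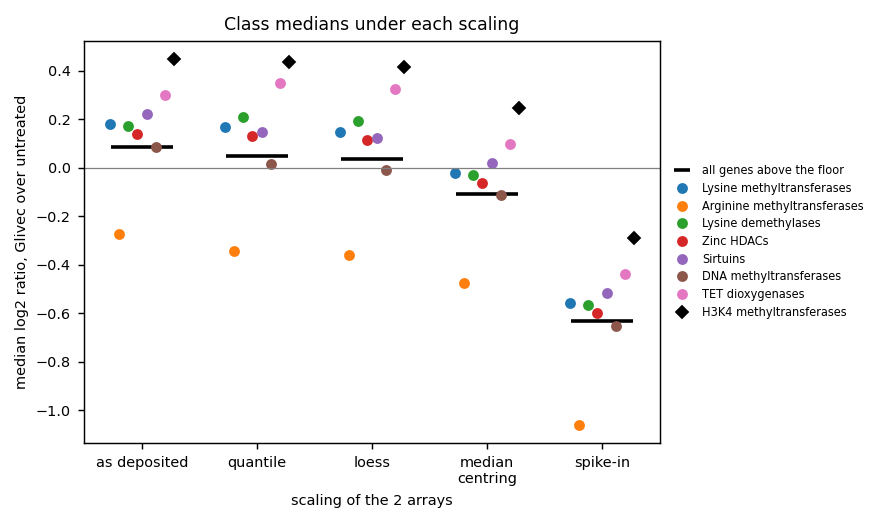
Median log2 ratio (Glivec over untreated) of each enzyme class under 5 scalings of the 2 arrays; black bars are the median of all genes above the floor. Arginine methyltransferases lie below the bar in every scaling, DNA methyltransferases lie below it except as deposited, and the other classes lie above it, while the sign of every class but the arginine methyltransferases turns under at least 1 scaling.

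The arginine methyltransferases were the class with the lowest median, -0.27 over 8 genes. Lower with Glivec were 6 of 8, where 42.2% of all genes were lower. PRMT7, which makes monomethylarginine, had a signal of 145 with Glivec and 253 without, 1.74-fold lower. PRMT6, which places asymmetric dimethylation on histone H3, had 187 and 284, 1.52-fold lower. For PRMT5, the main enzyme of symmetric dimethylation, the signals were 568 and 857, 1.51-fold lower. Its 3 probe sets were all lower, from -0.59 to -0.36, whereas PRMT6 and PRMT7 have 1 probe set each. PRMT1, which makes most asymmetric dimethylarginine in cells, was the brightest enzyme gene of all with 2870 and 3354, a log2 ratio of -0.22. PRMT3, a ribosomal protein methyltransferase of the cytosol, was at -0.32 and PRMT8, a membrane-bound relative of PRMT1, was dim and at -0.03. PRMT2 was at 0.42 by the probe set used and between -0.26 and 0.42 over 6, with its brightest, an _x_at probe set, at -0.11, and PRMT9, which acts on a splicing factor, was at 0.24. The class median was below 0 under each scaling, at -0.34 with quantile normalization, -0.36 after loess, -0.48 with median centring and -1.06 with spike-in scaling.

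The methyltransferases of histone H3 lysine 4, the mark of promoters and enhancers, were higher in 6 of 6, with a median of 0.45, where 57.8% of all genes were higher. This direction held with quantile normalization, loess and median centring (6 of 6 each) and turned with spike-in scaling (0 of 6, median -0.29, where 8.82% of all genes were higher and their median was -0.63). KMT2B had signals of 159 with Glivec and 96.1 without, 1.66-fold higher. SETD1B, the catalytic subunit of a COMPASS complex, had 409 and 254, 1.61-fold higher. KMT2A (MLL) was at 0.51 by the probe set used, and 6 of its 7 probe sets above the floor were higher. KMT2C and KMT2D, which act at enhancers, were at 0.38 and 0.21, and the dim SETD1A at 0.21. KMT2E, a relative with a divergent SET domain, had 425 and 288, a log2 ratio of 0.56, and all 3 of its probe sets were higher.

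Other lysine methyltransferases went both ways. EZH1, a catalytic subunit of the Polycomb complex PRC2 that methylates histone H3 lysine 27, had signals of 289 with Glivec and 166 without, 1.74-fold higher. Its other probe sets were at 0.49, 0.25 and -0.32. EZH2, its paralogue in dividing cells, was the brightest lysine methyltransferase gene with 664 and 610, a log2 ratio of 0.12. KMT5C, which di- and trimethylates histone H4 lysine 20, was 1.90-fold higher from low signals, 37.5 and 19.7. KMT5A and KMT5B, which act on the same residue, were at -0.12 and 0.08, but the other 2 KMT5B probe sets were at -0.51 and -0.16. SETD2, the enzyme of histone H3 lysine 36 trimethylation, was level by the probe set used, with 303 and 306. Other SETD2 probe sets were at 0.34 and 0.27. At the lower end SETD7, which methylates histone H3 and several transcription factors, had 303 and 523, 1.72-fold lower. SETD3, an actin histidine methyltransferase, had 196 and 335, 1.71-fold lower. Dim second probe sets of SETD7 and SETD3 were at 0.08 and -0.10. SETD4, SETD5, SETD6 and SETD9 lay between -0.03 and 0.18, with a second SETD6 probe set at -0.58.

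Of the lysine demethylases above the floor 13 of 16 were higher, with a median of 0.17, where 57.8% of all genes were higher. The count was 13 of 16 with quantile normalization and after loess (54.4% and 53.2% of all genes), 7 of 16 with median centring (39.7%) and 1 of 16 with spike-in scaling (8.82%). KDM8, a JmjC oxygenase, had the largest ratio of the enzyme genes, 2.43-fold, with signals of 52.9 with Glivec and 21.8 without. Its other 2 probe sets were below the floor on both arrays. KDM3A, which demethylates histone H3 lysine 9, had 526 and 324, 1.62-fold higher, and its paralogue KDM3B was at 0.19. KDM5B, a demethylase of histone H3 lysine 4, had 309 and 197, 1.56-fold higher. Its 4 probe sets above the floor were close together, from 0.54 to 0.71. KDM5A and KDM5C, of the same specificity, were at 0.13 and 0.43, but KDM5A ranged from -0.49 to 0.68 over 5 probe sets. KDM6B (JMJD3), an inducible demethylase of histone H3 lysine 27, had 244 and 161, 1.52-fold higher, and all 5 of its probe sets were higher, from 0.06 to 1.19. KDM6A (UTX) was at 0.33. KDM4A, which acts on histone H3 lysines 9 and 36, was at 0.55 and 0.51 by its 2 probe sets, with KDM4C at -0.16. KDM4B was at 0.16 by the probe set used and at 0.50, 0.75 and 0.79 by 3 others above the floor on both arrays. KDM2A and KDM2B bind unmethylated CpG. KDM2B, with the highest signals of the class, had 627 with Glivec and 564 without, a log2 ratio of 0.15, and KDM2A was at 0.12, or 0.05 and 0.75 by others. The flavin enzymes KDM1A (LSD1) and KDM1B were at -0.23 and 0.10, and KDM7A at -0.28. Second probe sets of KDM1B and KDM7A lay on the other side of 0, at -0.06 and 0.18.

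**Figure D3:**
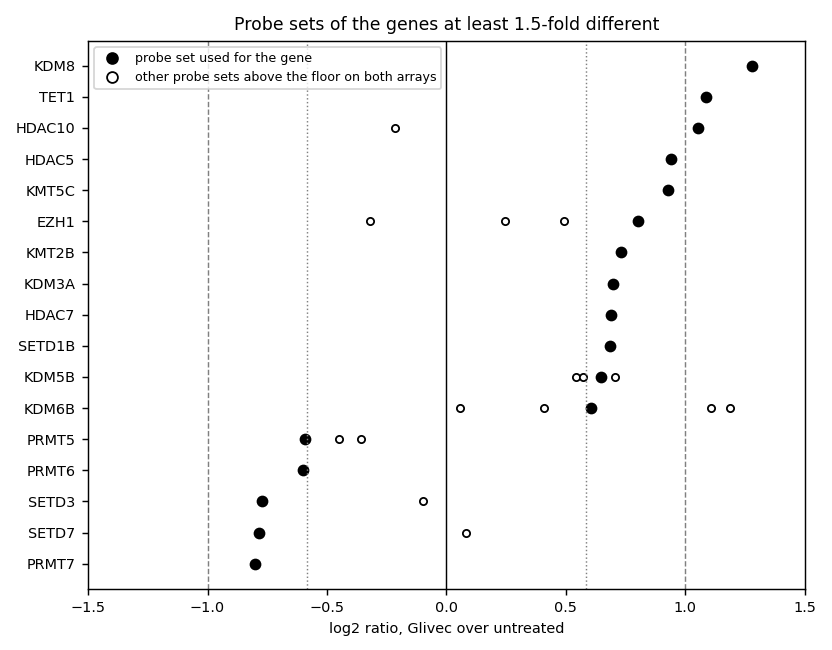
Log2 ratio (Glivec over untreated) of every probe set above the floor on both arrays for the 17 enzyme genes at least 1.5-fold different; filled points are the probe set that gave the gene's value (the brightest that is not _x_at), and open points the others. Probe sets of KDM5B and PRMT5 lie close together, those of HDAC10, EZH1 and SETD7 lie on both sides of 0, and 10 genes have 1 such probe set.

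Zinc-dependent deacetylases had log2 ratios from -0.25 to 1.05. The class I enzymes had a median of 0.01, among them HDAC1, HDAC2 and HDAC3, the catalytic subunits of nuclear corepressor complexes. HDAC1 had signals of 1657 with Glivec and 1691 without, and HDAC2 had 1721 and 1867. These were the brightest deacetylase genes, and neither differed by more than 0.12 on the log2 scale. HDAC3 was at 0.23 and HDAC8, a class I enzyme that acts on cohesin, at 0.05. In class IIa, whose members shuttle between nucleus and cytoplasm, HDAC5 had 142 and 74.3, 1.92-fold higher, and HDAC7 had 51.1 and 31.7, 1.61-fold higher. Both rest on 1 probe set above the floor. HDAC9 of this class was at -0.25, and HDAC4 at 0.02 by the probe set used and at 0.44 and 0.64 by the other 2. The class IIb gene HDAC10, a polyamine deacetylase, had 111 and 53.4, 2.07-fold higher, but a dim second probe set (18.4 and 21.3) was at -0.21. HDAC6, the tubulin deacetylase of class IIb, was at 0.37. The medians of all 10 deacetylases were 0.14 as deposited, -0.064 with median centring and -0.60 with spike-in scaling.

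Sirtuins had log2 ratios from -0.21 to 0.54. Of 6 above the floor 5 were higher, where 57.8% of all genes were higher. The sirtuin median was 0.22 as deposited, 0.019 with median centring and -0.52 with spike-in scaling. SIRT1, the nuclear enzyme that deacetylates p53 and FOXO proteins, was the brightest, with 391 with Glivec and 326 without, a log2 ratio of 0.26. The mitochondrial SIRT3 was at 0.54, and its 3 probe sets were all higher, up to 1.03. SIRT2, SIRT5 and SIRT6 lay between 0.14 and 0.25, a second SIRT5 probe set was at 0.84, and SIRT7, of the nucleolus, was at -0.21.

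The DNA methyltransferases had log2 ratios from -0.09 to 0.35 and the TET genes from -0.40 to 1.08. DNMT1, the maintenance methyltransferase, had signals of 1205 with Glivec and 1279 without, a log2 ratio of -0.09. The de novo enzymes DNMT3A and DNMT3B were at 0.35 and 0.09, and the 3 DNMT3A probe sets ranged from -0.06 to 0.90. TET2 was the brightest TET gene with 831 and 675, a log2 ratio of 0.30. TET1 had low signals, 71.7 and 33.8, 2.12-fold higher, and its second probe set was above the floor on the Glivec array alone. TET3 had 168 and 221, a log2 ratio of -0.40, so the direction differed within the family.

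The largest higher ratios came from dim genes. KDM8, TET1 and HDAC10, the genes at least 2-fold higher, had untreated signals of 21.8 to 53.4. At the 1.5-fold level the 12 higher genes had 19.7 to 324, and the 5 lower genes had 253 to 857. The untreated signal is the denominator of the ratio, so it is not independent of direction. Among 13 enzyme genes with a mean signal below 100, 5 were at least 1.5-fold higher and 0 lower. In that range 20.2% of all genes were higher by this measure and 8.01% lower. Among 21 enzyme genes with a mean signal of 300 or more, 2 were higher and 2 lower, and all genes there had 5.71% and 7.82%. The pooled SD between probe sets was 0.36 in the dimmer and 0.27 in the brighter part of the enzyme genes.

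**Figure D4:**
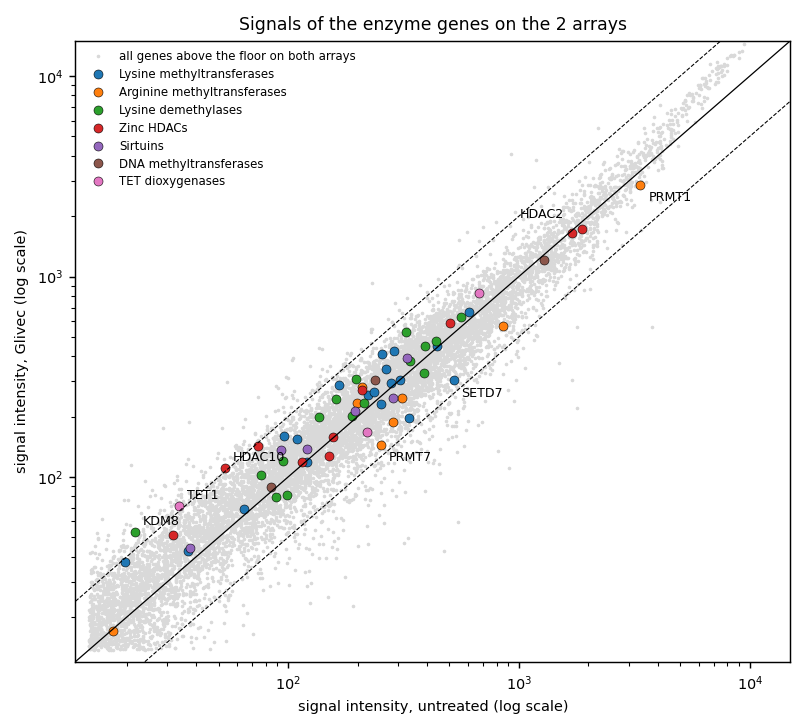
Signal intensity with Glivec against untreated, both on log axes, for the 65 enzyme genes (coloured by class) over all genes above the floor on both arrays (grey); the solid line marks equal signal and the dashed lines 2-fold. KDM8, TET1 and HDAC10 lie at or above the upper dashed line at low signal, and the bright PRMT1, HDAC1 and HDAC2 lie close to equality.

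Promoter sequences are shown for the largest ratios in each direction, KDM8 and TET1 (higher) and PRMT7 and SETD7 (lower), to set their CpG content beside that of other promoters, since DNMT enzymes methylate the cytosine of CpG and TET enzymes oxidise that methyl group. They are the 250 bases before the first RefSeq start listed for the gene on GRCh38.p14, 5′ to 3′ on the gene's strand, and capitals mark each CG pair.
KDM8, chr16:27203276-27203525, plus strand: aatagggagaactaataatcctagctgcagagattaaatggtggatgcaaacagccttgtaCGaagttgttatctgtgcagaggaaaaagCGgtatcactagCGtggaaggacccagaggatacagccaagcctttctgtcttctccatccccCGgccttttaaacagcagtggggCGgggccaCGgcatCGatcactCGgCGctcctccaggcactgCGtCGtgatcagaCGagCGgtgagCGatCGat
TET1, chr10:68560087-68560336, plus strand: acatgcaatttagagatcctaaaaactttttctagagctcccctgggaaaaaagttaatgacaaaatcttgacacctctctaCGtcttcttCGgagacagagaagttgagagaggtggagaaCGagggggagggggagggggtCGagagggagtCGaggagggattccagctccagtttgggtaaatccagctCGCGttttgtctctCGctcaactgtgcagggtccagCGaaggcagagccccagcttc
PRMT7, chr16:68310769-68311018, plus strand: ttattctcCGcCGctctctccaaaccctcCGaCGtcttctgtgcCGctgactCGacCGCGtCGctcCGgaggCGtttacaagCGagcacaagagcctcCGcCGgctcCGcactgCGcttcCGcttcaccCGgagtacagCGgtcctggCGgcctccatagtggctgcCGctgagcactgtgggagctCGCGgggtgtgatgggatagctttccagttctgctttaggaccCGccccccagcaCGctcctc
SETD7, chr4:139556220-139556469, minus strand: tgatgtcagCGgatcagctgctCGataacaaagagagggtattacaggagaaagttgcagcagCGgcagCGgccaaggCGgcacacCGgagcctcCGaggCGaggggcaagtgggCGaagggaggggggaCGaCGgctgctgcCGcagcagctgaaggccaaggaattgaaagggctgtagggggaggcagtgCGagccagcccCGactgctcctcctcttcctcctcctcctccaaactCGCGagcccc
The KDM8 stretch holds 15 CG pairs and 53.2% G and C, and that of TET1 holds 9 and 51.6%. PRMT7 has 25 pairs and 64.8%, and SETD7 has 16 and 64.0%. Over the 102 such windows of 65 matched enzyme genes the medians were 23 pairs and 67.2%, against 11 and 58.0% over all 35116 listed windows. The enzyme genes are thus CG-rich as a group. KDM8, TET1 and SETD7 lie below both medians of the group, and PRMT7 lies below that for G and C alone. Both higher genes have fewer CG pairs and less G and C than both lower genes. So few windows allow no conclusion about direction, and a link was not tested. No methylation was measured here.

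The same windows were searched on both strands for CACGTG (the E-box bound by MYC), TGTTTAC (a FOXO site), TTCNNNGAA (a STAT site) and TGACGTCA (a CRE). The E-box was found in 12 of 102 windows (11.8%), in 11 genes, and in 6.34% of all windows. FOXO, STAT and CRE letters were found in 1, 2 and 1 of the 102 windows, against 2.98%, 6.57% and 1.65% of all windows. These shares were not adjusted for base composition. The enzyme windows hold more CG pairs than all windows (medians of 23 and 11), and CACGTG itself contains a CG pair. The part of this difference in the shares was not tested. Windows of 1 gene can overlap, and a match of letters is a description and not a site. The E-boxes of genes from 4 classes are shown with up to 12 bases on each side, E-box in capitals, for SIRT1, KDM4C and TET3, which hold 2 each in 1 window, and for PRMT3, the arginine methyltransferase gene with a match.
SIRT1, chr10:67884521-67884550, plus strand: gcctccgcccgcCACGTGacccgtagtgtt
SIRT1, chr10:67884600-67884629, plus strand: gatggggcgggtCACGTGatggggtttaaa
KDM4C, chr9:6757898-6757927, plus strand: tgtttgtaagccCACGTGactcaccaagtg
KDM4C, chr9:6757930-6757959, plus strand: ggccccagcggtCACGTGacggcgcgcgcg
TET3, chr2:73984831-73984860, plus strand: tcggcggggccgCACGTGtgcgccctcccg
TET3, chr2:73984871-73984900, plus strand: tccccgggcgagCACGTGccgcggtgcgcg
PRMT3, chr11:20387517-20387546, plus strand: ccgcccccacctCACGTGacccgcacggcg
The 11 genes with an E-box (DNMT3A, HDAC4, KDM4B, KDM4C, KDM6A, KMT2D, PRMT3, SETD6, SIRT1, TET2 and TET3) had log2 ratios from -0.40 to 0.35 with a median of 0.16. None of them was 1.5-fold different, where 12.7% of all genes were higher and 8.43% lower at this level. The 51 matched genes without one that were above the floor on both arrays had a median of 0.15, and 15 were 1.5-fold different. Their range was -0.80 to 1.28, but a range also widens with the number of genes. A link between the E-box and the ratio was not tested. None of the 4 motifs was found in the printed windows of KDM8, TET1, PRMT7 and SETD7.

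Other chromatin genes, from 8 lists of 99 genes chosen by function, were described in the same way. Of these 91 were above the floor on both arrays, with a median log2 ratio of 0.10. At least 2-fold higher was 1 and at least 2-fold lower were 3, beside 2.75% and 2.61% of all genes, so the lower count lies near the share of all genes. MAT2A, which makes the S-adenosylmethionine that all methyltransferases use, had signals of 562 with Glivec and 1791 without, 3.18-fold lower, or at -1.52 by a second probe set. JMJD6, a JmjC lysyl hydroxylase, had 151 and 361, 2.39-fold lower. RIOX1, a JmjC oxygenase that acts on a ribosomal protein, had 173 and 408, 2.36-fold lower. Its relative RIOX2 had 147 and 293, a log2 ratio of -0.99. JMJD6, RIOX1 and RIOX2 are from the list of demethylases outside the naming rule, which also holds the arginine methyltransferase CARM1 (0.14). Of the 8 genes in that list 5 were lower, where 42.2% of all genes were lower. The list median was -0.25, but it mixes demethylases with oxygenases and CARM1, and JMJD6, RIOX1 and RIOX2 were its lowest genes. Its remaining genes went both ways, with PHF8 at -0.22, HR at -0.28, PHF2 at 0.08 and JMJD1C at 0.76. JMJD1C had 577 with Glivec and 341 without, and its 4 probe sets above the floor ranged from 0.46 to 1.05. The list median thus does not describe demethylases alone. EHMT2 (G9a), a methyltransferase of histone H3 lysine 9, was 2.06-fold higher by the probe set used and at -1.02 by another, so its direction is not settled. Partner subunits had medians of 0.13 over 9 PRC2 partners, 0.09 over 12 COMPASS partners and 0.20 over 18 corepressor partners, against 0.086 for all genes. The COMPASS partners went both ways, from -0.70 for WDR5 (228 with Glivec and 370 without) to 0.66 for KANSL1 (477 and 302). Histone acetyltransferases, which oppose the HDACs, had a median of 0.13 over 10, with CREBBP and EP300 at 0.89 and 0.74. Probe sets of CREBBP reached down to -0.19, and those of EP300 to 0.27. The list of readers and repair factors of methylated DNA, which also holds APOBEC3B, had a median of 0.41 over 9. Its highest gene was APOBEC3B, with 618 and 341, a log2 ratio of 0.86. Its lowest was the glycosylase gene TDG, with 486 and 940, a log2 ratio of -0.95, or 0.0044 by a second probe set.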

How the data were processed

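RNA of 1 Glivec-treated and 1 untreated EOL-1 culture was measured on 1 Affymetrix array each. The deposited values are linear signal intensities, 1 per probe set, and per the submitters' processing notes the tool was MAS5 (no version is given in the sources used here). Trimmed by 2% at either end, the mean signal was 100.014 on each of them. Depth does not apply to arrays, and their number (2) limits the precision.

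Of 54675 probe sets 41097 had 1 gene symbol in the platform annotation, which can be old, 1801 had several and 11777 none, and genes were named only from the first kind. Entrez identifiers found in the NCBI gene table (GRCh38.p14) changed 0 enzyme symbols. Each gene was read from its probe set of highest mean signal, _x_at probe sets only where there was no other. Signals were raised to a floor of 13.7 (the 50th percentile) before log2 was taken. Ratios are descriptions without a test. All 65 enzyme genes above the floor are given by class, with both signals for those at least 1.5-fold different and the brightest of each class. From the other lists genes at least 2-fold different are named. RIOX2, CARM1, PHF8, HR, PHF2, JMJD1C, WDR5, KANSL1, CREBBP, EP300, TDG and APOBEC3B fall outside this rule and were chosen after their values were seen. Members, lists and this rule were chosen with earlier results of these data known.

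Alternatives were quantile normalization, median centring, loess (span 0.3), spike-in scaling, another floor (40th, 60th or 75th percentile), a pseudocount of 0.646 in place of the floor, averaging a gene's probe sets, leaving out _s_at, _x_at and _a_at probe sets, and thresholds of 1.5-fold and 3-fold. The calculation was tested on simulated data, with changes planted in bright genes only and less noise than the spread between probe sets. It therefore does not show how well ratios of dim genes are recovered. Python 3.11.15 was used with numpy 2.4.6, pandas 2.3.3, statsmodels 0.14.6 and matplotlib 3.10.9. Promoter windows are from RefSeq (GRCh38.p14) and matched 65 of 69 genes.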

Additional observations from a re-analysis of the deposited data

How the results depend on the processing

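No paired analysis was possible because there is only 1 array a group, and no array could be left out. The count of enzyme genes at least 2-fold higher, 3 as deposited, was 1 (KDM8) with quantile normalization, loess, median centring and the mean over probe sets. It was 0 with spike-in scaling, the 75th percentile floor and a 3-fold threshold, and 12 with a 1.5-fold threshold. The count at least 2-fold lower, 0 as deposited, was 1 with median centring (PRMT7), 1 with no floor and a pseudocount (DNMT3L, below the floor on both arrays), 8 with spike-in scaling and 5 with a 1.5-fold threshold. The median was -0.57 with spike-in scaling and from -0.045 to 0.21 under the other settings. With only _at probe sets HDAC10 reversed to -0.21, since its other probe set is then used. Spike-in scaling lowers every ratio by 0.74, which turned HDAC7 to -0.051, KDM3A to -0.040, KDM5B to -0.092, KDM6B to -0.13, KMT2B to -0.0095 and SETD1B to -0.054. The other 11 of the 17 genes at least 1.5-fold different kept their sign with it. All 17 did with quantile normalization, loess, median centring and the mean over probe sets, where 15, 14, 11 and 12 stayed past 1.5-fold in the same direction, against 5 with spike-in scaling. Ratios of dim genes are the least certain, and 1 array per group leaves the spread between cultures unknown.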
